A study of Mus musculus with 12 samples.

Results

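The 30 genes described here encode enzymes of cholesterol synthesis, their sterol sensors and proteins that move, esterify or clear cholesterol. They were taken by gene symbol from a table of 24197 RefSeq genes, and all 30 were found. RNA came from livers of untreated, intact male and female CD-1 mice, an outbred stock, aged 7 to 11 weeks, and no group carried a transgene or a treatment. Ribosomal RNA was depleted, in part only per the labels, from total liver RNA and from RNA of nuclei purified through sucrose. The 12 libraries formed 4 groups, total and nuclear RNA of either sex, each of 3 pools, and each pool combined 12 to 17 mice, so that differences between single animals are averaged out. The study asked which lncRNAs and RefSeq genes differ between male and female liver.

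Liver cells build cholesterol from acetyl-CoA through mevalonate, farnesyl pyrophosphate, squalene and lanosterol. When membrane sterols are plentiful, the Insig proteins hold Scap and the membrane-bound precursor encoded by Srebf2 in the endoplasmic reticulum. When sterols run short, Scap escorts the precursor to the Golgi, where it is cut, and the released fragment enters the nucleus and switches on genes of synthesis and uptake. The liver also takes up, esterifies, secretes and exports cholesterol for the whole body.

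The values are the authors' mean FPKM of 3 pools (fragments per kb of transcript, scaled to library size), which allow levels to be compared between genes. The deposited tables give means, a male over female ratio and an adjusted p, and values per pool were not used here, which leaves the spread between pools and their overlap undescribed. A gene was called when its adjusted p was under 0.05 over the whole table. Every sex difference is the log2 of the deposited male over female ratio, negative where the female level was higher, and the signed fold change carries the same sign. The 12 libraries held 11.3 to 24.4 M reads, as estimated from the steps between low FPKM values. All male total pools and 1 female total pool ran in lane 3 and all other pools in lane 4, so sex and lane overlapped in part in total RNA and could not be separated on group means, while the nuclear comparison lay within lane 4. On the log2 scale, deposited ratios stood above the quotient of means by 0.48 (SD over genes 0.047, 4738 genes) in total and 0.12 in nuclear RNA, and levels and ratios therefore sit on different scales.

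In total liver RNA, 4 of the 29 genes above 0 FPKM were called, and all 4 were higher in females. They were Sqle and Sc5d, enzymes of the late pathway, Srebf2, the sterol-regulated transcription factor, and Lipc, the hepatic lipase that trims lipoproteins. In nuclear RNA 3 of 29 were called, again all higher in females: Mvd, Insig2 and Srebf2. Srebf2 was the 1 gene called in both fractions, and 6 genes were called in either. No gene of the 29 was called higher in males. Over all genes above 0, 4.46% of 16404 were called in total RNA and 5.8% of 17467 in nuclear RNA, with 2.36% and 2.98% higher in females and 2.1% and 2.82% higher in males. Abundant genes were called more often. Among genes of at least 1 FPKM in a group 9.17% were called in total RNA (4.81% higher in females) and 13.5% in nuclear RNA (7.12% higher in females). Among the 26 and 21 cholesterol genes that reached this level, 15.4% and 14.3% were called, all higher in females. Among genes of at least 5 FPKM the background was 19.1% in total RNA (10.5% higher in females) and 35.9% in nuclear RNA (20.4% higher in females), against 17.6% of 17 and 16.7% of 6 cholesterol genes. At this level the share called was under the background in either direction for both fractions, while against calls higher in females it lay above in total RNA and below in nuclear RNA. These shares rest on 3 and 1 calls and were not tested.

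From the authors' deposited table, the median sex difference of the 29 genes was log2 -0.17 in total RNA, against -0.03 for all genes above 0. In nuclear RNA it was log2 -0.01 in the authors' deposited table, against 0.00 for all genes. In total RNA 21 of the 29 values lay below 0 and in nuclear RNA 16, where 53.9% and 49.6% of all genes did. Between the fractions, 12 genes were negative in both, 4 positive in both, 9 negative in total RNA alone and 4 negative in nuclear RNA alone. The unscaled quotient of means lies lower for genes in general by the 0.48 given above. On it all 29 genes, the 8 positive ones included, lay below 0 in total RNA, the highest deposited value being log2 0.36 for Insig2. The share of all genes below 0 on this quotient was not counted. A shift of 0.48 in genes in general says nothing about these genes in particular, and signs are given on the deposited scale. Whether the sex difference itself differed between total and nuclear RNA could not be tested on means.

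**Figure D1:**
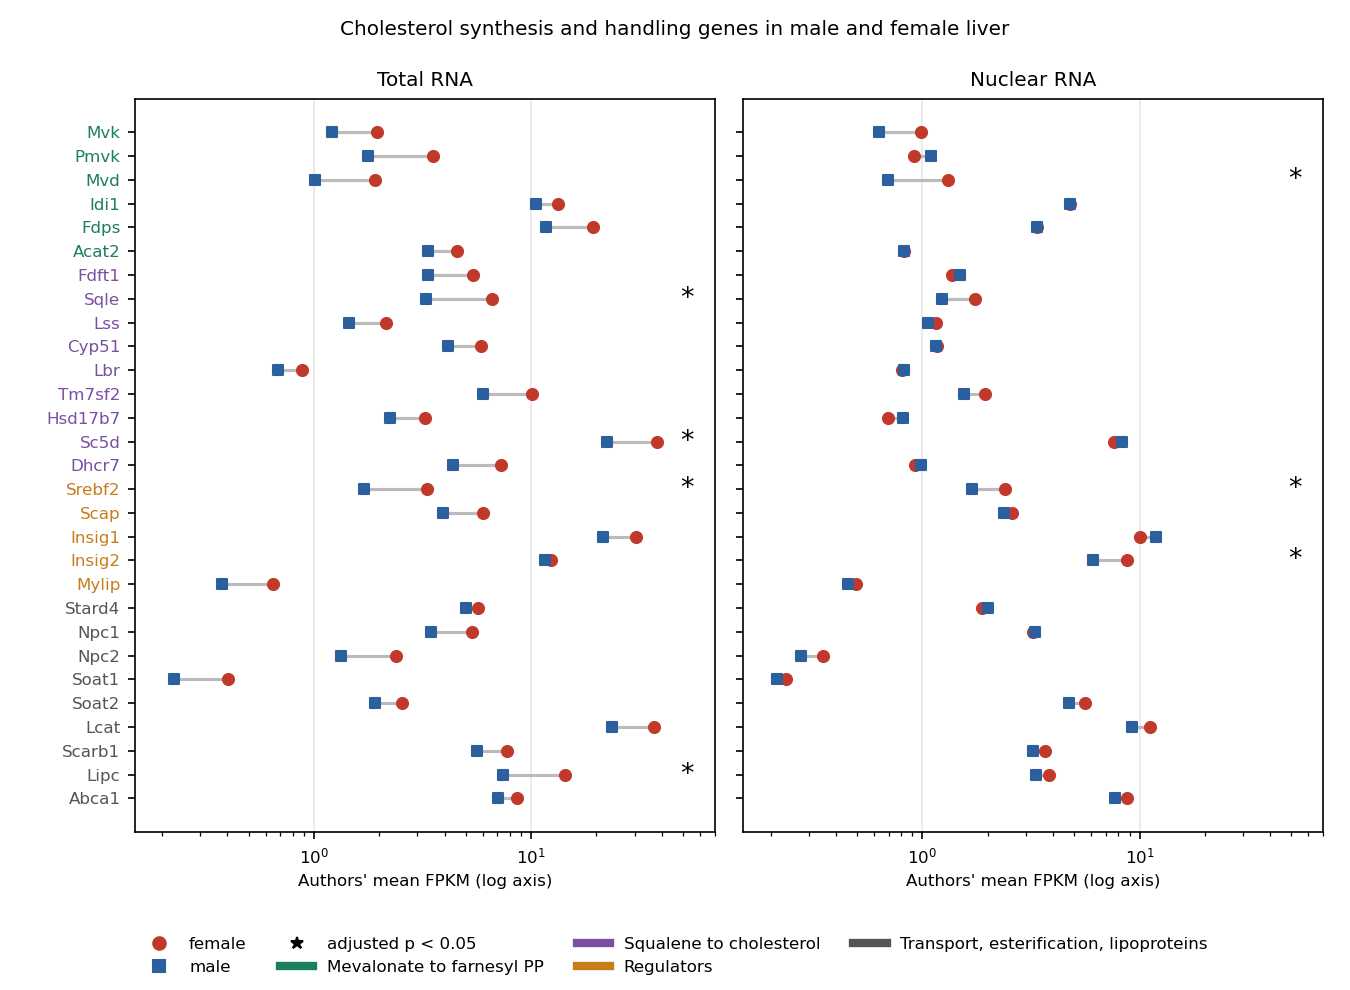
Authors' mean FPKM (log axis) of the 29 genes above 0 in total RNA (left) and nuclear RNA (right), with circles for females, squares for males and a star for an adjusted p under 0.05 in the authors' deposited table. Female means lie to the right of male means for all 29 genes in total RNA on this axis. Deposited ratios stand above the quotient of these means by 0.48 on the log2 scale for genes in general. Sc5d (38.1 and 22.4 FPKM) and Lcat (37.0 and 23.6 FPKM) are the most abundant in total RNA.

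Promoter sequences are shown for the called genes with an entry in the RefSeq promoter table, since both the sterol-regulated factor and its partners act there. The table, of the build GRCm38.p6 (the deposited coordinates are mm9), holds 30 starts for 23 of the 30 genes, with no entry for Fdps, Sqle, Stard4, Npc1, Scarb1, Fdft1 and Soat2. Each line gives the 250 bases before a transcription start, and capitals mark matches on either strand to CCAAT (bound by NF-Y), GGGCGG (bound by Sp1) and TCACNCCA, the first 8 letters of a sterol regulatory element. For Hmgcs1 a shorter stretch is given around the single match in these genes to the full element TCACNCCAC. Lipc has 2 listed starts, of which the outermost is shown, and which of them its measured transcripts use was not tested.
Srebf2, chr15:82147019-82147268, plus strand: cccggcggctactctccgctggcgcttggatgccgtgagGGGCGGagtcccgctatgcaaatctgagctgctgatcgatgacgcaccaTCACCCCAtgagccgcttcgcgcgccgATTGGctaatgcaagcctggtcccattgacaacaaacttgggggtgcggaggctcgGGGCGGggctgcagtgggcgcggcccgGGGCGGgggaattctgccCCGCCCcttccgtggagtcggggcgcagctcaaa
Mvd, chr8:122443423-122443672, minus strand: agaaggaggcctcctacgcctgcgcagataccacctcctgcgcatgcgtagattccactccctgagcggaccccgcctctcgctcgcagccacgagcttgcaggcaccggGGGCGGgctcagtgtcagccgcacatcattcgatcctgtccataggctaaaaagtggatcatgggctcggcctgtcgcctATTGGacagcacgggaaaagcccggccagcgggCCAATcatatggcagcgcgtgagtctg
Sc5d, chr9:42264301-42264550, minus strand: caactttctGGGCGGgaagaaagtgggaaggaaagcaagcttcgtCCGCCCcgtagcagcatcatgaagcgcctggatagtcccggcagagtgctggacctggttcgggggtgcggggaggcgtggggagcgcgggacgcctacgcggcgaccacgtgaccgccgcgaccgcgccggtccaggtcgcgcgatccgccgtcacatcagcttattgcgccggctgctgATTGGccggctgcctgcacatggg
Insig2 outermost start, chr1:121332590-121332839, minus strand: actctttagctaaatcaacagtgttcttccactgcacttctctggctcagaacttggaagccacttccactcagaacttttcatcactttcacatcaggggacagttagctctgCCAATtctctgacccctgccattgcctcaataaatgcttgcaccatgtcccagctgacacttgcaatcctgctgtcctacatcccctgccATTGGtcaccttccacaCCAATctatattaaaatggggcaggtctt
Insig2 innermost start, chr1:121327679-121327928, minus strand: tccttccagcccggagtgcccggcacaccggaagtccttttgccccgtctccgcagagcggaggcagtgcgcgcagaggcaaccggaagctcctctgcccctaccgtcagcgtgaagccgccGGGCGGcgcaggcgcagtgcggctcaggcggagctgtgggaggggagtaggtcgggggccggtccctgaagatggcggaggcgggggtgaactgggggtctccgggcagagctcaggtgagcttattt
Lipc outermost start, chr9:70952222-70952471, minus strand: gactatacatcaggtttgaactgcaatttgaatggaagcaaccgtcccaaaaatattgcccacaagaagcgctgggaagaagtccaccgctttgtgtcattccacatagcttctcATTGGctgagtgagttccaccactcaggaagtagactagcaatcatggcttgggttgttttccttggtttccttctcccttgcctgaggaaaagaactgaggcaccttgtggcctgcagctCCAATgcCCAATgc
Hmgcs1, chr13:119690198-119690238, plus strand: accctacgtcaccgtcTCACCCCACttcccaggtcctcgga

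In the windows from 250 bases before to 50 after the start, CCAAT was found in 21 of the 30 promoters (70%) and in 37.4% of the 32851 promoters of the table. GGGCGG was found in 24 of 30 (80%) and in 35.7% of all promoters. Both letter runs are common among promoters, and a match is no evidence of binding. The element TCACNCCAC was present in 1 of 30 promoters, that of Hmgcs1, at position -137 from the start, and in 1.24% of all promoters. The shorter TCACNCCA, searched after the first result was seen and contained in the longer element, was present in Hmgcs1 and Srebf2 (4.36% of all promoters). In Srebf2 it began at position -162. An LXR-type repeat (GGTCA and AGGTCA spaced by 4 bases) and the CREB element TGACGTCA were found in 0 of the 30 and in 0.0213% and 1.79% of all promoters.

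The early pathway from acetyl-CoA to farnesyl pyrophosphate was represented by 7 genes. Hmgcs1, the cytosolic synthase that feeds the mevalonate pathway, was listed at 0 FPKM in all 4 groups. The table places it only on chr13_random, at 2 positions, and all 61 rows placed only on such unplaced contigs were listed at 0, so its level in liver is not given by these values. Mvd, the decarboxylase that makes isopentenyl pyrophosphate (chromosome 8, 124957495 to 124967322), had 1.32 FPKM as the authors' mean for females and 0.697 for males in nuclear RNA and 1.92 and 1.02 FPKM in total RNA. Its sex difference was log2 -0.80 (signed fold change -1.75, adjusted p = 0.00286) in nuclear RNA and log2 -0.47 (adjusted p = 0.39) in total RNA in the authors' deposited table. This was the widest ratio among the 29 genes in either fraction. About 79.6 reads over 3 pools stood behind its lowest mean, estimated with exon lengths of the later build.

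Pmvk, the phosphomevalonate kinase of the preceding step, had 3.53 FPKM as the authors' mean for females and 1.78 for males in total RNA and 0.911 and 1.09 FPKM in nuclear RNA. It missed the threshold in total RNA, at log2 -0.53 with adjusted p = 0.0549, and stood at log2 0.37 (adjusted p = 0.65) in nuclear RNA in the authors' deposited table. Its sign thus differed between the fractions. Mvk, the kinase that acts first on mevalonate, was scarcer, with 1.96 FPKM as the authors' mean for females and 1.21 for males in total RNA. In the authors' deposited table it lay at log2 -0.17 in total and -0.50 in nuclear RNA and was not called (adjusted p = 1 and 0.59). The nuclear means of Mvk were 0.988 and 0.634 FPKM.

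Idi1, the isomerase of isopentenyl pyrophosphate, and Fdps, which joins these units to farnesyl pyrophosphate, were the most abundant of the early enzymes. Fdps had 19.2 FPKM as the authors' mean for females and 11.7 for males in total RNA but 3.36 and 3.38 FPKM in nuclear RNA. Idi1 had 13.3 and 10.6 FPKM in total RNA as the authors' means, and 4.79 and 4.80 FPKM in nuclear RNA. Acat2, the cytosolic thiolase that starts the route, had the authors' mean of 4.56 and 3.34 FPKM in total RNA and 0.827 and 0.826 FPKM in nuclear RNA. For these 3 genes the deposited nuclear means of the sexes were all but equal, and none was called. The authors' deposited table put Idi1 at log2 0.11 in both fractions, Fdps at -0.25 in total and 0.12 in nuclear RNA, and Acat2 at 0.07 and 0.11.

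The late pathway from squalene to cholesterol was represented by 9 genes, of which 2 were called in total RNA and none in nuclear RNA. Sqle, the squalene epoxidase that is a control point of the pathway (chromosome 15, 59146646 to 59162748), had 6.61 FPKM as the authors' mean for females and 3.29 for males in total RNA. In nuclear RNA its means were 1.75 and 1.23 FPKM. The authors' deposited table gave Sqle log2 -0.55 (signed fold change -1.47, adjusted p = 0.00229) in total RNA and log2 -0.40 (adjusted p = 0.21) in nuclear RNA. The direction was thus female in both fractions and only the total value passed the threshold.

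Sc5d, the lathosterol oxidase of a late step (chromosome 9, 42062259 to 42072383), was the most abundant of the 29 genes in total RNA. Its authors' means were 38.1 FPKM in females and 22.4 in males there and 7.66 and 8.28 FPKM in nuclear RNA. Its difference in the authors' deposited table was log2 -0.33 (signed fold change -1.26, adjusted p = 0.0460) in total RNA and log2 0.23 (adjusted p = 0.63) in nuclear RNA. The total call lay close to the threshold, and the nuclear value had the other sign.

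The other late enzymes were not called. Fdft1, the squalene synthase, had 5.39 FPKM as the authors' mean for females and 3.34 for males in total RNA, and Lss, the lanosterol synthase, 2.15 and 1.45 FPKM. Cyp51, the lanosterol demethylase, had 5.89 and 4.13 FPKM as the authors' means in total RNA. In the authors' deposited table their total differences were log2 -0.22, -0.05 and -0.06. Nuclear means were 1.37 and 1.48 FPKM for Fdft1, 1.16 and 1.06 FPKM for Lss and 1.16 FPKM in both sexes for Cyp51, at log2 0.23, -0.02 and 0.11 by the authors' deposited table. Fdft1 overlaps Ctsb and Lss overlaps 4930483K19Rik, both on the opposite strand, and with the use of strand in counting unknown their values are uncertain.

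Tm7sf2 and Lbr encode sterol reductases of the same step, and Lbr is also the lamin B receptor of the inner nuclear membrane. Tm7sf2 had 10.1 FPKM as the authors' mean for females and 5.996 for males in total RNA, while Lbr had 0.878 and 0.683 FPKM. Tm7sf2 overlaps Vps51 on the same strand, which leaves the division of reads between them uncertain. Hsd17b7, a ketosteroid reductase of sterol demethylation, had the authors' mean of 3.27 and 2.25 FPKM in total RNA, and Dhcr7, the reductase that makes cholesterol from its dehydro precursor, 7.28 and 4.38 FPKM. In the authors' deposited table Tm7sf2, Lbr, Hsd17b7 and Dhcr7 lay at log2 -0.24, 0.09, -0.05 and -0.25 in total RNA. For nuclear RNA the authors' deposited table gave log2 -0.22, 0.14, 0.34 and 0.21, and 3 of these 4 were thus positive in nuclear RNA. In the same order, their nuclear means were 1.94 and 1.55, 0.802 and 0.820, 0.696 and 0.811, and 0.920 and 0.988 FPKM.

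Considered together, the 15 measured enzymes of both synthesis groups had median log2 values of -0.22 (total RNA) and 0.11 (nuclear RNA) in the authors' deposited table. Of the 15, 12 were negative in total RNA and 5 in nuclear RNA. Mvk, Mvd, Sqle, Lss and Tm7sf2 were the 5 negative in nuclear RNA. The medians of the 5 regulators were log2 -0.12 and -0.01, and those of the 9 handling genes log2 -0.17 and -0.08, in the authors' deposited table.

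**Figure D2:**
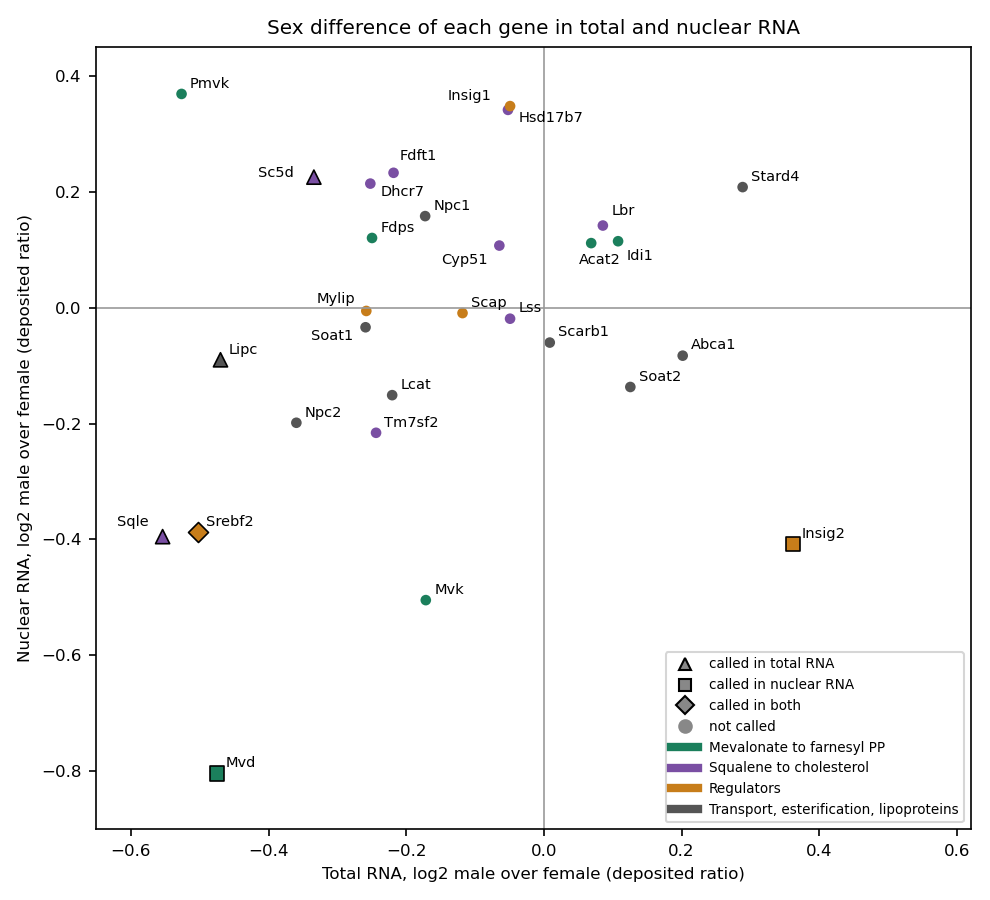
Sex difference of each of the 29 genes as log2 of the deposited male over female ratio in total RNA (horizontal axis) and nuclear RNA (vertical axis), coloured by role, with marker shapes for calls. Srebf2, the 1 gene called in both, lies at -0.50 and -0.39; Insig2 lies at 0.36 and -0.41, and Pmvk at -0.53 and 0.37.

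Among the regulators Srebf2 and Insig2 were called. Srebf2 (chromosome 15, 81977698 to 82035390), whose intron holds the microRNA gene Mir33, had 3.32 FPKM as the authors' mean for females and 1.70 for males in total RNA and 2.40 and 1.68 FPKM in nuclear RNA. In the authors' deposited table the difference was log2 -0.50 (signed fold change -1.42, adjusted p = 0.00250) in total RNA and log2 -0.39 (signed fold change -1.31, adjusted p = 0.0286) in nuclear RNA. The female level was the higher one in both fractions.

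Insig2, a sterol sensor of the endoplasmic reticulum (chromosome 1, 123200929 to 123229166), had 12.4 FPKM as the authors' mean for females and 11.7 for males in total RNA. In nuclear RNA its means were 8.73 and 6.10 FPKM. The authors' deposited table gave log2 -0.41 (signed fold change -1.33, adjusted p = 0.0278) in nuclear RNA. In total RNA it gave log2 0.36 (adjusted p = 0.10), the highest of the 29 genes in the authors' deposited table. Its sign on the deposited scale thus differed between the fractions, and the total value was not called. The deposited locations of Insig2 have 3 upstream ends, spaced by 4565 and 346 bases, as are the 3 starts in the promoter table. The sequence at the outermost start, shown above, has a GC content of 47.2% and 3 CCAAT matches, and that at the innermost start 69.6% and none. The deposited FPKM does not separate these transcripts.

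Insig1, the other Insig gene and itself a target of the sterol pathway, was the most abundant regulator. It had 30.6 FPKM as the authors' mean for females and 21.4 for males in total RNA and 10.05 and 11.9 FPKM in nuclear RNA. The authors' deposited table put Insig1 at log2 -0.05 and 0.35, and it was called in neither fraction (adjusted p = 1 and 0.29). The signs of both Insig genes were thus opposite to each other in each fraction on the deposited scale, with 1 of these 4 values called. Scap, the escort protein, had 5.99 and 3.94 FPKM as the authors' means in total RNA and 2.595 and 2.38 FPKM in nuclear RNA. Mylip, the ubiquitin ligase that sends the LDL receptor to degradation, had 0.646 and 0.377 FPKM as the authors' means in total RNA, and neither it nor Scap was called (log2 -0.26 and -0.12 in total RNA in the authors' deposited table). In nuclear RNA Mylip had 0.494 and 0.455 FPKM, and both genes lay at log2 -0.01 by the authors' deposited table.

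Of the 9 genes that handle finished cholesterol, 1 was called in total RNA and none in nuclear RNA. Lipc, the hepatic lipase (chromosome 9, 70645934 to 70782615), had 14.4 FPKM as the authors' mean for females and 7.47 for males in total RNA. Its nuclear means were 3.84 and 3.32 FPKM. In the authors' deposited table the difference was log2 -0.47 (signed fold change -1.38, adjusted p = 0.00705) in total RNA and log2 -0.09 (adjusted p = 1) in nuclear RNA.

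Esterification and uptake genes were not called in either fraction. Lcat, which esterifies cholesterol on plasma lipoproteins, had 37.0 FPKM as the authors' mean for females and 23.6 for males in total RNA and 11.1 and 9.20 FPKM in nuclear RNA. Soat2, the esterifying enzyme of mouse hepatocytes, had 2.53 and 1.91 FPKM as the authors' means in total RNA but 5.64 and 4.71 FPKM in nuclear RNA. Soat1, its relative of many other cell types, was the scarcest of the 29 genes, with the authors' mean of 0.401 and 0.228 FPKM in total RNA. Scarb1, the HDL receptor, had 7.77 and 5.65 FPKM as the authors' means in total RNA with a difference of log2 0.01 by the authors' deposited table. The authors' deposited table put Lcat, Soat2 and Soat1 at log2 -0.22, 0.13 and -0.26 in total RNA and at -0.15, -0.14 and -0.03 in nuclear RNA. Nuclear means of Soat1 were 0.235 and 0.213 FPKM and those of Scarb1 3.67 and 3.23 FPKM, with Scarb1 at log2 -0.06 by the authors' deposited table.

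Transport genes showed no call either. Abca1, which exports cholesterol to lipid-poor apolipoprotein, had 8.66 FPKM as the authors' mean for females and 7.02 for males in total RNA and 8.80 and 7.69 FPKM in nuclear RNA. Stard4, a cytosolic sterol carrier, had 5.69 and 4.99 FPKM as the authors' means in total RNA. The authors' deposited table put Abca1 at log2 0.20 and Stard4 at 0.29 in total RNA. Npc1 and Npc2, which move cholesterol out of lysosomes, had the authors' means of 5.35 and 3.47 FPKM and of 2.38 and 1.34 FPKM in total RNA (log2 -0.17 and -0.36 in the authors' deposited table). In nuclear RNA Stard4 had 1.88 and 2.00 FPKM, Npc1 3.22 and 3.31 FPKM and Npc2 0.347 and 0.276 FPKM as the authors' means. Their nuclear differences were log2 0.21, 0.16 and -0.20, and that of Abca1 -0.08, by the authors' deposited table. Npc1 overlaps 3110002H16Rik, which makes its values uncertain. Npc2 had the fewest reads, about 59.2 over 3 pools in its lowest group, against 4063 for Abca1, so its values are the least precise.

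Some markers of other liver cells were also called between the sexes in total RNA. Of 11 markers of Kupffer cells and other macrophages, 3 were called higher in females in total RNA and 0 in nuclear RNA, and their median log2 was -0.50 and -0.05 (the authors' deposited table). Their summed level was 39.8 FPKM in females and 18.9 in males in total RNA and 9.12 and 8.42 FPKM in nuclear RNA, with none at 0. The lists did not all point the same way. Markers of sinusoidal endothelium and of stellate cells had 1 call each of 7, higher in females, in total RNA and 0 in nuclear RNA in the authors' deposited table. Of 5 cholangiocyte and 4 erythroid markers, 1 each was called higher in males in total RNA, and 1 erythroid marker also in nuclear RNA, by the authors' deposited table. The part of such cells in the total RNA values of the cholesterol genes was not tested. Hepatocyte markers, 6 of 7 found, reached a sum of 6664 FPKM (females) and 3743 FPKM (males) in total RNA, far above the other lists, with 2 called higher in females and 2 in males there. In bulk RNA, fewer cells of a type and less RNA per cell cannot be told apart.

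The nuclear mean plus 1 FPKM was divided by the total mean plus 1 FPKM, and the log2 of this quotient was taken less the median over the 7306 genes of at least 1 FPKM in a group. Adding 1 FPKM shrinks the values of scarce genes, and RNA fraction and lane cannot be told apart for males. The 26 cholesterol genes past this filter stood at a median of -1.01 in females and -0.76 in males. Against genes of at least 5 FPKM in a group instead, the 18 that remained had a median of -0.038 in females and 0.072 in males, so the low position holds relative to all expressed genes and not relative to abundant ones.

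By group median the enzymes of synthesis stood lowest, at -1.13 in females and -0.87 in males. Handling genes had medians of -0.61 and -0.58, and regulators -0.16 and -0.47. Of the 15 measured enzymes, 11 in females and 10 in males lay within the range of the lowest 25% of the 7306 genes. So did 4 and 5 of the 9 handling genes and 2 of the 5 regulators in each sex. Low values were thus not particular to the enzymes: Lcat had -1.34 and -1.19, and Lipc -1.37 and -0.89. Fdps was lowest at -1.91 in females and -1.46 in males on this nuclear over total scale. Sc5d had -1.87 and -1.26, Dhcr7 -1.80 and -1.36, and Tm7sf2 -1.61 and -1.38. The order after Fdps differed between the sexes, with Sc5d next in females and Tm7sf2 next in males. Within the early pathway Mvd (-0.03 and -0.17) and Mvk (-0.27 and -0.36) lay nearer the median of all genes than Fdps, Acat2 and Idi1 did. Pmvk had -0.94 in females, close to Idi1, and -0.33 in males, close to Mvk. Lbr had 0.24 and 0.19, but it was under 1 FPKM in every group and thus not among the 7306 genes. With 1 FPKM added, even Hmgcs1, listed at 0 FPKM, stood at 0.30 in females and 0.076 in males. The position of Lbr is therefore not set against that of Tm7sf2.

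Soat2 was the exception at the other end. Its nuclear over total value was 1.21 in females and 1.05 in males, above 93.8% and 93.3% of the 7306 genes, and its nuclear means exceeded its total means in both sexes. Abca1 had 0.33 and 0.19 on the same scale. Soat1 had 0.12 and 0.06 but, like Lbr, was under 1 FPKM in every group, so its position is not read. Insig2 had -0.16 in females and -0.76 in males, while Insig1 had -1.21 in females and -0.73 in males, so the order of the Insig genes on this scale was reversed between the sexes by a narrow margin in males. No test could be made on means.

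**Figure D3:**
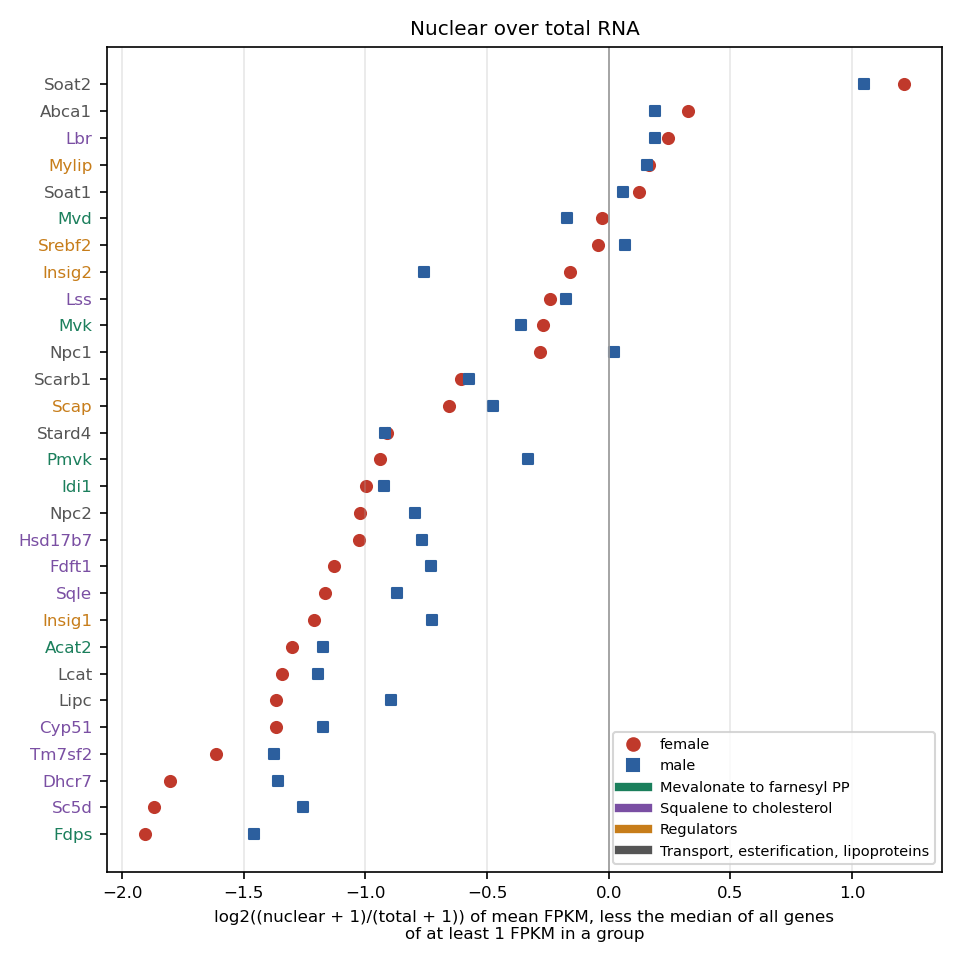
Nuclear over total RNA of each of the 29 genes, the log2 quotient of the authors' mean FPKM, 1 added to each, less the median of all genes of at least 1 FPKM in a group, in females (circles) and males (squares), with gene names coloured by role. Soat2 lies highest in both sexes (1.21 and 1.05) and Fdps lowest (-1.91 and -1.46).

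The lncRNA table of the same study held 27 lncRNAs that overlap one of these genes or lie within 10 kb, beside 14 of the 30 genes. In total RNA 0 were called, and in nuclear RNA 2, at a false discovery rate under 0.05 by edgeR in the authors' deposited table. At an unadjusted p under 0.05 these numbers were 0 and 4. Of all lncRNAs above 0 RPKM, 1.35% were called in total and 4.89% in nuclear RNA, and the 2 called were of 25 above 0 RPKM near these genes in nuclear RNA.

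The lncRNA ncRNA_inter_chr1_496 (mm9 chromosome 1, 123186298 to 123200784) lies on the strand of Insig2 and starts 145 bases beyond its end. Its authors' mean was 3.26 RPKM in females and 2.20 in males in nuclear RNA and 0.486 and 0.391 RPKM in total RNA. This lncRNA had in the authors' deposited table log2 -0.46 (false discovery rate 0.0175) in nuclear and log2 0.09 (false discovery rate 1) in total RNA. For Insig2 itself the authors' deposited table gave log2 -0.41 and 0.36, with the same sign as the lncRNA in each fraction. In total RNA neither was called, and the lncRNA means were higher in females, against the sign of its small log2. No agreement is read from that fraction. Whether reads of Insig2 enter this count was not tested. On the opposite strand, ncRNA_as_chr1_497 overlaps the upstream part of Insig2, with the authors' mean of 0.983 and 0.939 RPKM in nuclear RNA and no call.

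The second called lncRNA, ncRNA_inter_chr9_7874 (mm9 chromosome 9, 42079723 to 42088824), lies 7340 bases before the start of Sc5d on the opposite strand. Its authors' mean was 0.301 RPKM in females and 0.598 in males in nuclear RNA, with log2 1.08 and a false discovery rate of 0.00310 in the authors' deposited table. In total RNA it had 0.0741 and 0.101 RPKM as the authors' means and was not called. Sc5d was called higher in females in total RNA and this lncRNA higher in males in nuclear RNA, so the 2 calls come from different fractions. In nuclear RNA Sc5d had the same sign as the lncRNA, at log2 0.23 in the authors' deposited table, and did not pass the threshold.

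**Figure D4:**
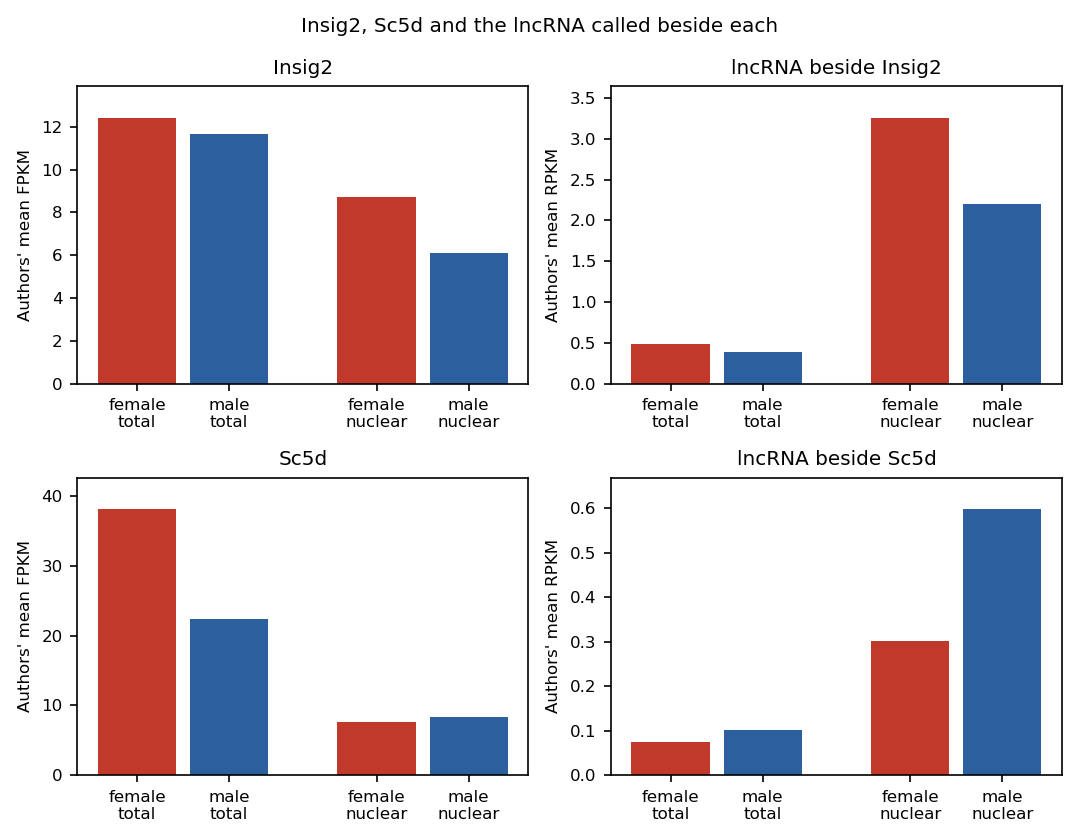
Authors' mean level of Insig2 and Sc5d (FPKM, left) and of the lncRNA called beside each (RPKM, right) in the 4 groups, with bars from 0, females red and males blue. The lncRNA beside Insig2 reaches 3.26 RPKM in female and 2.20 in male nuclear RNA, and that beside Sc5d 0.301 and 0.598.

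A list of 28 other genes of the pathway, among them further enzymes, receptors, proteases and nuclear receptors, was measured in full. In total RNA 3 were called, all higher in females, and in nuclear RNA 3 higher in females and 1 higher in males, in the authors' deposited table. The authors' deposited table gave list medians of log2 -0.12 and 0.00. The widest difference was that of Vldlr, a lipoprotein receptor, with 0.690 FPKM as the authors' mean for females and 0.154 for males in total RNA and 0.271 and 0.0951 FPKM in nuclear RNA. The authors' deposited table gave Vldlr log2 -1.74 (adjusted p = 2.00e-09) and log2 -1.39 (adjusted p = 1.42e-06). Vldlr was the 1 gene of this list called in both fractions. Next in size in total RNA was Stard3, a sterol carrier of late endosomes, which the authors' deposited table put at log2 -0.54 without a call.

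In total RNA the other calls were Lipa, the lysosomal acid lipase that frees cholesterol from its esters, and Fads1, a fatty acid desaturase that sterol-regulated factors control. Lipa had 15.9 FPKM as the authors' mean for females and 9.07 for males, and Fads1 27.6 and 15.2 FPKM. The authors' deposited table gave Lipa log2 -0.34 (adjusted p = 0.0194) and Fads1 log2 -0.40 (adjusted p = 0.0172). The calls in nuclear RNA included Lrp1 and Erlin1. Lrp1, an endocytic receptor, had 18.8 and 13.1 FPKM as the authors' means in nuclear RNA (the authors' deposited table: log2 -0.40, adjusted p = 0.00206). Erlin1, which takes part in sterol-dependent protein turnover in the endoplasmic reticulum, was higher in males, with 1.23 and 1.71 FPKM as the authors' means (the authors' deposited table: log2 0.60, adjusted p = 0.00105).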

How the data were processed

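Trizol was used for RNA and a strand-keeping kit for libraries, per the labels' protocols. Per the submitters' processing notes, TopHat2, featureCounts, edgeR and mm9 were used; no version or setting is stated. The deposited RefSeq table gives group means in FPKM, a ratio of male to female, the matching fold change with a sign, and adjusted p-values; the tool behind them is not stated. For lncRNAs the deposited table has RPKM means and, per the file headers, edgeR's log2 fold changes, p-values and false discovery rates. In 3 lncRNA rows the values were stored rotated and were put back.

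The members and lists were chosen with earlier results of these data known. A count model was planned in case counts per pool were held; the tables hold means, so the calls are the authors' adjusted p under 0.05. The log2 of each ratio, medians, counts and nuclear over total quotients were computed here. Since the deposited tables hold no column of per-sample values, 0 such columns were left unused. All 30 genes are named, and of 28 other pathway genes those called or among the 3 widest in total or nuclear RNA, except some that are not reported here.

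Depth was estimated from single-exon genes, where 1 read in 1 pool sets the lowest FPKM, and covers counting error only. The versions were Python 3.11.15, numpy 2.4.6, pandas 2.3.3 and matplotlib 3.10.9. Only the motif search and the nuclear over total quotient were tested on simulated data. Promoter sequences are from RefSeq (GRCm38.p6).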

Additional observations from a re-analysis of the deposited data

How the results depend on the processing

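No paired analysis was possible because the deposited tables hold group means without values per pool; for the same reason no pool could be left out and no other count model or normalization was run. In total RNA the 4 calls numbered 3 to 5 under thresholds of 0.01 and 0.1 and under minimums of 1 and 5 FPKM; requiring more than 1.5-fold left 0. In nuclear RNA the 3 calls became 1 at a threshold of 0.01, 1 with more than 1.5-fold (Mvd in both cases) and 1 at a minimum of 5 FPKM (Insig2). The median sex difference moved from log2 -0.17 to -0.65 in total and from -0.01 to -0.13 in nuclear RNA on the unscaled quotient. Deposited ratios stood above that quotient by 0.48 and 0.12 for genes in general, and the cause of this offset was not tested. The nuclear median of the cholesterol genes was -0.019 over the 21 of at least 1 FPKM and -0.11 over the 6 of at least 5 FPKM. For all genes at these levels it was -0.010 and -0.078.

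The nuclear over total median, -1.01 in females and -0.76 in males, was -1.19 and -0.99 with a pseudocount of 0.1 FPKM and -0.48 and -0.36 with 5 FPKM. It was -1.24 and -0.82 with no filter, -1.31 and -0.84 without centring, and -0.038 and 0.072 against genes of at least 5 FPKM. Chosen after seeing the data, a window of 5 kb or a false discovery rate under 0.01 left 1 lncRNA called in nuclear RNA, and the shorter sterol element was found in 2 promoters. Without centring, the nuclear over total median moved by the median that centring subtracts, log2 -0.30 in females and -0.076 in males. The cause of the other shifts was not tested. Depth limits Npc2, Mylip and Mvd most.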
